A study of Mus musculus with 18 samples.

Results

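JAK2V617F is the activating JAK2 mutation of myeloproliferative neoplasms (MPN), and the comparison described here is that of JAK2V617F+ with JAK2V617F- progenitor cells of the same MPN marrow, cultured with a blocking antibody (BA) against TNFR2. It took in all 6 arrays labelled as TNFR2 BA-treated, 3 JAK2V617F+ and 3 JAK2V617F-, out of 18 arrays in the series, and all 10335 probe sets deposited for them. JAK2V617F+ cells were Lin-Kit+GFP+ and JAK2V617F- cells were Lin-Kit+GFP-, both sorted from bone marrow of Balb/c mice with MPN raised by a retroviral JAK2V617F vector that also carries GFP. Every group shared the culture of 16 h in IL-3 at 50 ng/mL and SCF at 100 ng/mL, and the BA was at 10 μg/mL. The remaining groups were the same 2 genotypes cultured with TNFR1 BA or untreated, with 3 arrays each. The labels give no age of the mice. The vector, not the Jak2 gene's own promoter, drives the mutant kinase, and cells without GFP can be untransduced donor cells or cells left from the host. The paper describes 3 independent experiments, each with both genotypes sorted from the same cultured marrow, so an array was paired with the one of the same replicate number.

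TNF acts through 2 receptors. TNFR1, encoded by Tnfrsf1a, carries a death domain and can signal to survival through NF-kB or to cell death, whereas TNFR2, encoded by Tnfrsf1b, has no death domain and signals through TRAF proteins to NF-kB and JNK. In MPN, JAK2V617F gives constant signalling downstream of the receptors for erythropoietin, thrombopoietin and granulocyte colony-stimulating factor, and marrow progenitors are skewed to myeloid, erythroid and megakaryocytic fates. The comparison asks which transcripts separate mutant from non-mutant progenitors when signalling through TNFR2 is blocked.

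Values are log2 signals per probe set, so a difference of 1 is a doubling of the signal, and the lowest signal in the table was 2.22. The table holds no detection calls, and a difference from a group lying at that lowest value may be understated. Array medians lay between 7.51 and 7.69 among the 6 arrays. Arrays of the same genotype correlated by 0.713 to 0.782 and arrays of different genotypes by 0.704 to 0.756, which overlap. The 3 arrays of a group spanned more than 5 log2 units in 11.9% of probe sets for JAK2V617F+ and 10.2% for JAK2V617F- cells. The number of arrays therefore limits the precision, and the median standard error of a difference was 1.16. Kit, the receptor of SCF and a marker of the sort, had log2 signals of 6.94, 9.95 and 7.78 in JAK2V617F+ cells, against 6.01, 4.19 and 7.83 in JAK2V617F- cells. Those signals spread widely in both genotypes and overlapped.

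Under TNFR2 BA, JAK2V617F+ cells differed from JAK2V617F- cells mainly by mast cell transcripts and Mycn. Of the 10335 probe sets, 6 passed an adjusted p of 0.05 (limma, Benjamini-Hochberg adjustment) with a higher signal in JAK2V617F+ cells (0.0581%) and 0 with a lower one. The 6 genes were Tpsab1, Tpsb2, Cpa3 and Fcer1a, which are products of mast cells, and Mycn and Rhoj. At an unadjusted p under 0.05, 332 probe sets were higher (3.21%) and 371 lower (3.59%), together 703 where 517 would be expected with no difference at all. All 3 JAK2V617F+ arrays lay above all 3 JAK2V617F- arrays for 522 probe sets (5.05%) and below them for 519 (5.02%). About 517 would be expected in each direction with no difference at all. Lack of overlap in a single gene, given below, therefore describes its values and is not a test. The smallest adjusted p of a lower signal was 0.0678, for a probe set without a gene name.

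**Figure D1:**
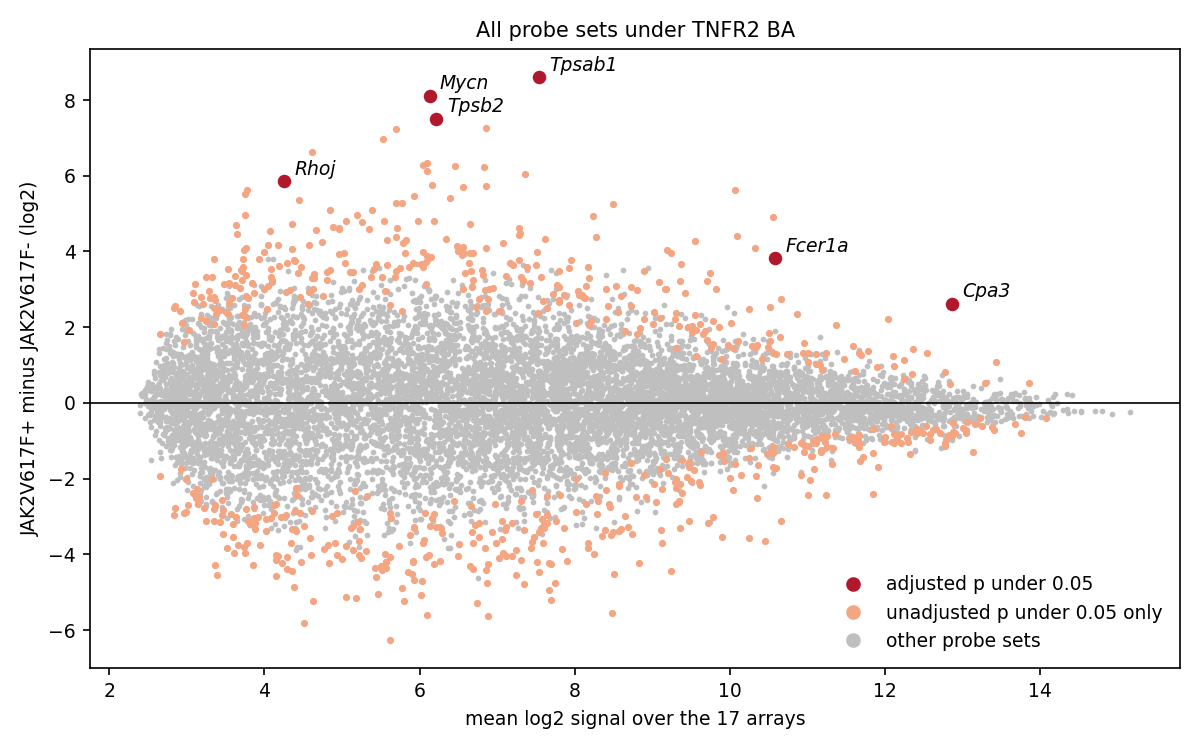
Each point is 1 of 10335 probe sets, with its mean log2 signal over the 17 arrays on the horizontal axis and its fitted JAK2V617F+ minus JAK2V617F- difference under TNFR2 BA (log2) on the vertical axis. The 6 named probe sets past an adjusted p of 0.05 all lie above 0, and differences of dim and mid-range probe sets scatter more than those of bright ones.

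Mycn, a transcription factor of the MYC family, had log2 signals of 11.93, 10.22 and 8.92 in JAK2V617F+ cells, against 2.22, 2.28 and 2.22 in JAK2V617F- cells. It was bright in every mutant array and at the lowest signal of the data in every non-mutant array. The difference was 8.12 (standard error 1.06, adjusted p = 0.00973). Rhoj, a small GTPase best known from endothelial cells, had the same form, at 7.62, 7.8 and 9.17 in JAK2V617F+ cells and 2.22, 2.22 and 2.59 in JAK2V617F- cells. Its difference of 5.85 (standard error 0.94, adjusted p = 0.0282) therefore also ran against arrays at or near the lowest signal.

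The mast cell genes encode proteases of the secretory granule and the receptor for IgE, through which allergens trigger granule release. Tpsab1, a tryptase, had log2 signals of 13.39, 12.02 and 12.5 in JAK2V617F+ cells, against 2.33, 6.72 and 3.06 in JAK2V617F- cells. Replicate 2 was the highest of the JAK2V617F- cells, and the other two lay near the lowest signal. The difference was 8.60 (standard error 1.26, adjusted p = 0.0122). Tpsb2, another tryptase, had 10.65, 9.66 and 10.18 in JAK2V617F+ cells, against 2.83, 2.6 and 2.55 in JAK2V617F- cells. Its replicates were tight in both genotypes, and the difference was 7.51 (standard error 1.04, adjusted p = 0.00973). The 2 tryptases are close relatives, and how far their probe sets take up each other's transcripts was not tested.

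Cpa3, the carboxypeptidase of mast cell granules, was bright in both genotypes. Its log2 signals were 14.55, 13.81 and 14.47 in JAK2V617F+ cells, against 10.88, 11.21 and 12.88 in JAK2V617F- cells. JAK2V617F- replicate 3 came closest to the mutant arrays, without reaching them, and the difference was 2.62 (standard error 0.37, adjusted p = 0.00973). Fcer1a, the chain of the high-affinity receptor that binds IgE, had 11.75, 11.26 and 13.58 in JAK2V617F+ cells, against 7.24, 8.06 and 9.84 in JAK2V617F- cells. Replicate 3 was the highest of each genotype, and the groups did not overlap. Its difference was 3.82 (standard error 0.63, adjusted p = 0.0326).

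**Figure D2:**
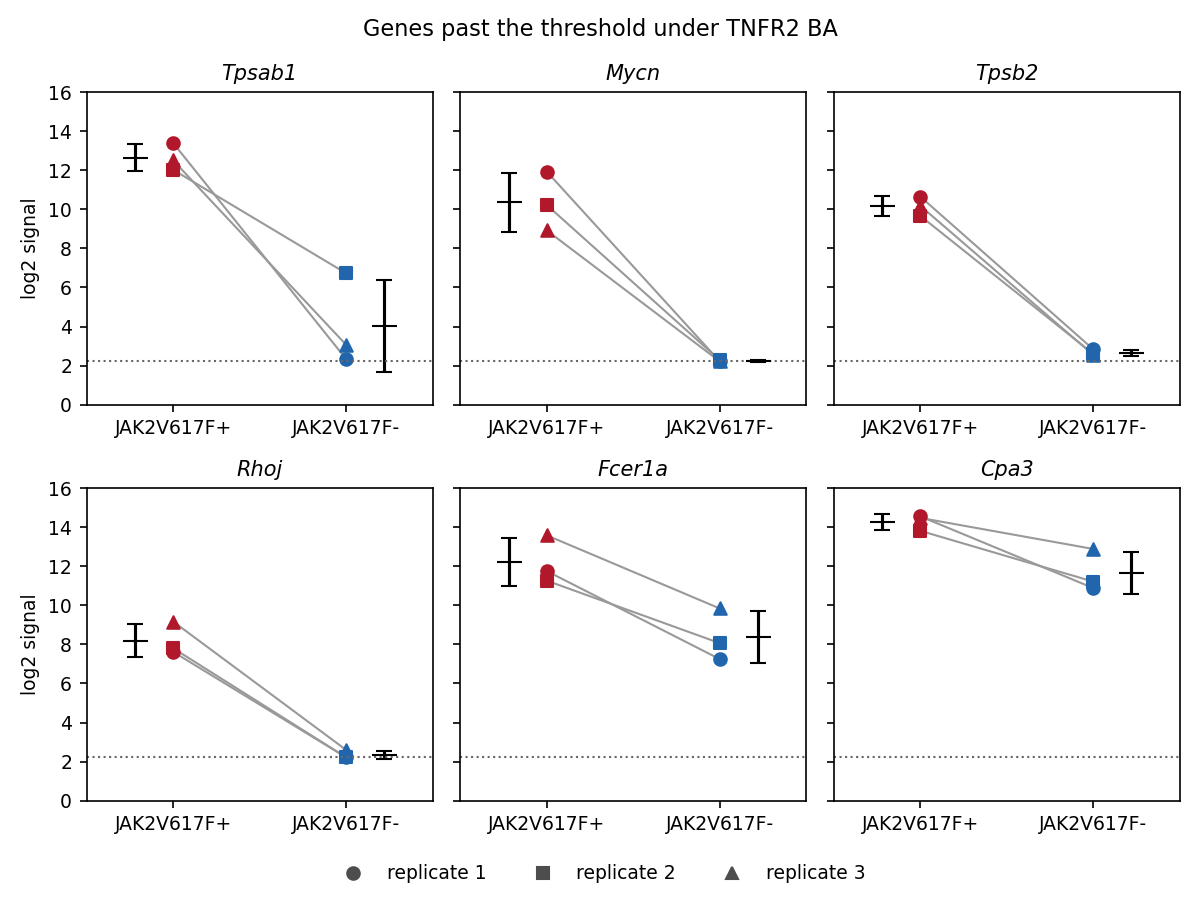
Log2 signals of the 6 genes past the threshold in the TNFR2 BA arrays, with JAK2V617F+ on the left and JAK2V617F- on the right of each panel. Lines join arrays of the same replicate number, bars give the mean ± SD of 3 arrays and the dotted line marks the lowest signal, 2.22. Mycn and Rhoj of JAK2V617F- cells lie on or near that line, whereas Cpa3 and Fcer1a lie well above it in both genotypes.

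These 6 calls rest on few arrays. Fitted without the replicate block, 4 passed (Mycn, Rhoj, Tpsab1 and Tpsb2). With replicates 1, 2 or 3 left out of all groups, the fit called 2, 0 and 0 probe sets, and 0 of the 6 were among them. The same 0 of 6 passed when only JAK2V617F+ replicate 1 or only JAK2V617F- replicate 1 under TNFR2 BA was left out, or when the 6 arrays were fitted alone. Their differences stayed positive in every one of these fits.

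The upstream sequence of the called genes is shown because both erythroid and mast cell genes are known targets of GATA factors, GATA1 and GATA2, which bind a short motif. RefSeq promoter windows of GRCm38.p6 were at hand for 4 of the 6 genes, Cpa3, Fcer1a, Mycn and Rhoj. The 250 bases before the start are printed 5′ to 3′ on the gene's strand, with matches to the GATA motif (AGATAA, where the first letter may also be T and the last also G, on either strand and with no overlap between spellings) in capitals.
Cpa3, chr3:20242182-20242431, minus strand: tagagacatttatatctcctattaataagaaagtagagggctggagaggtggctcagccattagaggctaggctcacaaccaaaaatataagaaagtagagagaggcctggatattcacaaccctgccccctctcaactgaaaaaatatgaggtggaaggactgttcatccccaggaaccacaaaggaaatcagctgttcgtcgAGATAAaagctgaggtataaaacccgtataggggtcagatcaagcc
Fcer1a, chr1:173227230-173227479, minus strand: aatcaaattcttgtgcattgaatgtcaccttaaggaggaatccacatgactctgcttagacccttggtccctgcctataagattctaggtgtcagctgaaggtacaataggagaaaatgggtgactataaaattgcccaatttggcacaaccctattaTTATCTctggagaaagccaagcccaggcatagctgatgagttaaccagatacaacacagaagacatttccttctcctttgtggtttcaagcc
Mycn, chr12:12941837-12942086, minus strand: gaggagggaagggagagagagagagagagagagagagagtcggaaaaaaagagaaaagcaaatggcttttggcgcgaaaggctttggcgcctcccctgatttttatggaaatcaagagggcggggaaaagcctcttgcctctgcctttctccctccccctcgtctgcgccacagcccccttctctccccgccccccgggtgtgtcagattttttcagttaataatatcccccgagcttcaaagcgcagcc
Rhoj, chr12:75308063-75308312, plus strand: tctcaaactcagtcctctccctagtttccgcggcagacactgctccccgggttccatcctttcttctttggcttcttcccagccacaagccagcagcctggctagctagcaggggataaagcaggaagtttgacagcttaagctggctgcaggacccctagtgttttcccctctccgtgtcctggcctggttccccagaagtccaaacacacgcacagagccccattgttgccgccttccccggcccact
Cpa3 held 1 match beginning 46 bases before the start and Fcer1a 1 match beginning 92 bases before it, and the match of Fcer1a was on the opposite strand. The windows of Mycn and Rhoj did not hold these letters. The same letters were found in 9 of 11 mast cell and basophil list genes with a window (81.8%) and in 9 of 13 erythroid list genes (69.2%), beside 1591 of 7908 measured genes (20.1%) and 26.5% of all 32851 windows in the table. A match describes the sequence and is not a binding site shown by these data.

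Beyond the called genes, the mast cell and basophil list had the largest shift of the 27 lists described. All 13 measured genes of the 22 listed had a positive difference, with a median of 3.44, beside a median of 0.00 over 9636 genes. Of the 13, 4 passed the adjusted threshold (0.0581% of all probe sets did so with a higher signal). An unadjusted p under 0.05 was reached by 9 (3.21% of all probe sets did so with a higher signal), and 8 did not overlap (5.05% of all probe sets lay above). Within replicates 1, 2 and 3 the median difference was 4.51, 2.60 and 2.57. The mean level of the list was 11.69, 11.15 and 12.08 in JAK2V617F+ cells and 7.39, 8.36 and 8.90 in JAK2V617F- cells.

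Among members that missed the adjusted threshold, Cma1, the mast cell chymase, had 14, 12.94 and 13.82 in JAK2V617F+ cells, against 8.22, 8.0 and 9.84 in JAK2V617F- cells. Every mutant array lay above every non-mutant one, with a difference of 4.90 (standard error 1.03, adjusted p = 0.144). Tph1, which makes serotonin's precursor, differed by 4.04 (adjusted p = 0.149), and Hdc, which makes histamine, by 3.44 (adjusted p = 0.353), and neither overlapped. Cd200r3, a receptor of basophils and mast cells, had 9.92, 10.01 and 10.01 in JAK2V617F+ cells, against 2.32, 3.81 and 7.44 in JAK2V617F- cells. Its mutant arrays were nearly level and its non-mutant arrays spread over much of the scale, giving 5.46 with an adjusted p of 0.303. The basophil protease Mcpt8 was bright in both genotypes, at 12.4, 12.47 and 13.96 in JAK2V617F+ and 12.02, 11 and 12.42 in JAK2V617F- cells. Its groups overlapped, with a difference of 1.13 (adjusted p = 0.652). Ms4a2, the beta chain of the IgE receptor, had the smallest difference of the list, 0.61 (standard error 0.86), with overlapping groups.

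The erythroid list came next, with a median difference of 1.74. Of 21 measured genes, 20 had a positive difference, 12 of them at an unadjusted p under 0.05, and 10 did not overlap, but 0 passed the adjusted threshold (3.21% of all probe sets had such a p with a higher signal, and 5.05% lay above). Within replicates 1, 2 and 3 the medians were 2.87, 1.55 and 0.87, so the shift was smallest in replicate 3. In bulk cells, more cells of a type and more RNA per cell cannot be told apart, here and for every cell type list.

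Ermap, a membrane protein of erythroblasts, had 11.72, 12.04 and 10.66 in JAK2V617F+ cells, against 7.19, 4.65 and 9.35 in JAK2V617F- cells. The mutant arrays lay above all others, with a difference of 4.41 and an adjusted p of 0.0825. Klf1, the master transcription factor of red cell genes, had 13.09, 10.5 and 10.68 in JAK2V617F+ cells, against 9.0, 7.98 and 7.6 in JAK2V617F- cells. Those groups did not overlap either, at a difference of 3.23 (adjusted p = 0.547). Pklr, the pyruvate kinase of red cells, had 12.76, 12 and 7.13 in JAK2V617F+ cells, against 3.08, 3.99 and 3.06 in JAK2V617F- cells, and Ank1, the ankyrin of the red cell membrane skeleton, had 9.99, 11.04 and 6.93 and 2.34, 2.34 and 2.34. For both, JAK2V617F+ replicate 3 was the lowest mutant array by a wide margin, and the differences were 7.25 and 6.98 (adjusted p = 0.191 and 0.308). The beta globin gene Hbb-b2 was bright throughout, at 12.73, 12.06 and 11.09 in JAK2V617F+ cells, against 10.97, 10.49 and 10.45 in JAK2V617F- cells. Without overlap, it differed by 1.33 (adjusted p = 0.417), as the carbonic anhydrase Car1 did by 1.28 (adjusted p = 0.681). Car2, another carbonic anhydrase, was lower in the mutant array of replicate 3 than in its partner, and differed by 1.15 (adjusted p = 0.648). Rhd, a Rh blood group antigen, Icam4, an adhesion protein of red cells, and Tal1, a transcription factor of blood stem cells and erythroid cells, had differences of 3.58, 2.82 and 1.65, all without overlap and all short of the adjusted threshold.

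**Figure D3:**
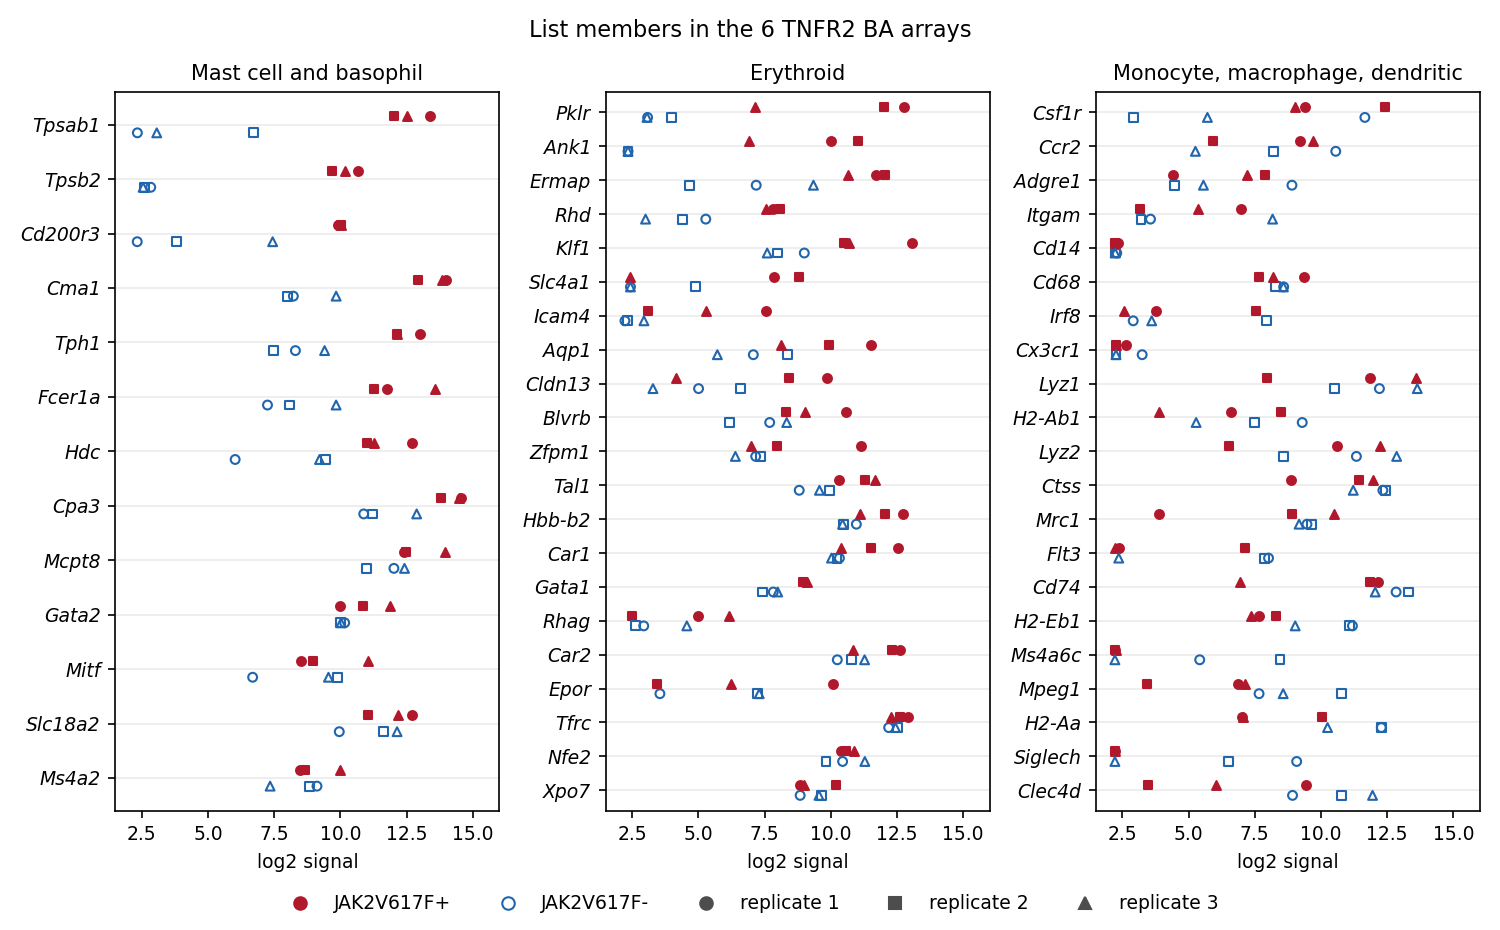
Log2 signals of every measured member of 3 cell type lists in the 6 TNFR2 BA arrays, genes ordered by difference, with filled symbols for JAK2V617F+ and open symbols for JAK2V617F- cells and a shape for each replicate. Of 13 mast cell and basophil genes 8 show mutant arrays wholly to the right, as do 10 of 21 erythroid genes, whereas 3 of 21 monocyte, macrophage and dendritic cell genes show them wholly to the left. Of all probe sets, 5.05% lay above and 5.02% below.

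Platelet lineage genes were less marked. The megakaryocyte and platelet list had a median of 1.30, with 12 of 14 positive, 2 at an unadjusted p under 0.05 and 0 without overlap. Of all probe sets, 3.21% had such a p with a higher signal, and 5.05% lay above. Pf4, the platelet chemokine of megakaryocytes, had 10.55, 12.1 and 13.39 in JAK2V617F+ cells, against 10.26, 8.24 and 11.35 in JAK2V617F- cells. Each mutant array exceeded its own partner although the groups overlapped, and the difference was 2.06 (adjusted p = 0.343). Mmrn1, a protein of platelet granules, differed by 3.35 (adjusted p = 0.733) but was lower in the mutant array of replicate 3 than in its partner.

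Genes of monocytes, macrophages and dendritic cells lay on the other side. Their median difference was -1.14, 17 of 21 were negative, 6 had an unadjusted p under 0.05 with a lower signal (3.59% of all probe sets did), 3 did not overlap (5.02% of all probe sets lay below) and 0 passed the adjusted threshold. The medians within replicates 1, 2 and 3 were -1.35, -0.99 and -0.14. H2-Aa and H2-Eb1 encode chains of MHC class II, which presents peptides to helper T cells. H2-Aa had 7.01, 10.04 and 7.07 in JAK2V617F+ cells, against 12.28, 12.29 and 10.25 in JAK2V617F- cells. Its highest mutant array, replicate 2, lay just under the lowest non-mutant one, and the difference was -3.57 (adjusted p = 0.107). H2-Eb1 differed by -2.67 without overlap, and Cd74, the invariant chain that escorts MHC class II, by -2.41 with overlap (adjusted p = 0.681 and 0.606). Cd74 had 12.14, 11.85 and 6.95 in JAK2V617F+ cells, against 12.84, 13.3 and 12.05 in JAK2V617F- cells, so replicate 3 carried most of that difference. Mpeg1, a pore-forming protein of macrophages, and Clec4d, a lectin of myeloid cells, differed by -3.20 and -4.24 (adjusted p = 0.706 and 0.343). Siglech, a marker of plasmacytoid dendritic cells, was at the lowest signal in all mutant arrays and in JAK2V617F- replicate 3, with 9.08, 6.49 and 2.22 in JAK2V617F- cells. Csf1r, the receptor of macrophage colony-stimulating factor, went the other way by 3.52 with a standard error of 2.38 and overlapping groups.

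Transcripts of lymphoid cells differed between replicates as well as between genotypes. The B cell list had a median difference of -1.50, made up of -3.84, -2.13 and 0.00 in replicates 1, 2 and 3. Its mean level was 3.51, 4.30 and 3.64 in JAK2V617F+ cells and 6.88, 6.33 and 2.45 in JAK2V617F- cells. JAK2V617F- replicate 3 had the lowest mean level of the 6 arrays. Pou2af1, a coactivator of B cells, was at the lowest signal in all 3 mutant arrays, against 10.26, 9.57 and 2.22 in JAK2V617F- cells, and 1 of 11 genes (Pou2af1) had an unadjusted p under 0.05 (difference -5.13, adjusted p = 0.461). Of all probe sets, 3.59% had such a p with a lower signal. Ighm, the heavy chain of IgM, was at 11.07 in JAK2V617F+ replicate 3 alone and near the lowest signal in the other 5 arrays. Of 9 T and NK cell genes, the granzyme Gzmb had 13.87, 13.3 and 13.49 in JAK2V617F+ cells, against 11.76, 12.55 and 12.42 in JAK2V617F- cells. All mutant arrays were above the others by a modest margin (difference 1.31, adjusted p = 0.373). Gzma, another granzyme, and Klrd1, a receptor chain of NK cells, differed by -3.81 and -3.26, and for both JAK2V617F- replicates 1 and 2 stood above all other arrays.

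Granulocyte transcripts did not separate the genotypes as a list. The neutrophil list had a median difference of -0.13. At an unadjusted p under 0.05, 0 of 16 genes were higher and 1 was lower (3.21% and 3.59% of all probe sets). That gene was Camp, the neutrophil cathelicidin, with 11.43, 4.44 and 11.94 in JAK2V617F+ cells, against 13.53, 10.36 and 13.32 in JAK2V617F- cells. Replicate 2 was low in both genotypes, and lower in the mutant one (difference -3.13, adjusted p = 0.461). S100a8, a calcium-binding protein of neutrophils given after its values were seen, was bright in every array, with 14.84, 14.23 and 15.24 in JAK2V617F+ cells, against 15.25, 14.76 and 15.13 in JAK2V617F- cells. The same dip of replicate 2 as in Camp was seen in Lcn2 and Ltf, other proteins of neutrophil granules, which were picked for it after their values were seen. Lcn2 had 12.41, 6.94 and 12.5 in JAK2V617F+ cells, against 11.97, 6.95 and 12.61 in JAK2V617F- cells, and Ltf had 11.68, 5.49 and 11.05, against 11.76, 6.56 and 10.36. Both genotypes of a replicate were nearly level, with differences of 0.10 and -0.15. Epx, the peroxidase of eosinophils, had 8.94, 10.25 and 13.6 in JAK2V617F+ cells, against 6.37, 9.79 and 11.9 in JAK2V617F- cells, with replicate 3 the highest of each genotype. The part of such cells in the other differences was not tested.

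In the stem cell and progenitor list, 1 of 23 genes passed the adjusted threshold with a higher signal, Mycn (0.0581% of all probe sets did), and the median was 0.44. At an unadjusted p under 0.05, 2 were higher and 2 lower (3.21% and 3.59% of all probe sets). Without overlap, 2 lay above and 1 below (5.05% and 5.02% of all probe sets). Hlf and Meis1, transcription factors of stem cells, had signals below those of the partner array in all 3 pairs. Hlf had 3.93, 4.77 and 3.9 in JAK2V617F+ cells, against 9.78, 8.45 and 4.29 in JAK2V617F- cells, and Meis1 had 2.25, 2.27 and 4.33, against 7.7, 6.81 and 4.5. JAK2V617F- replicates 1 and 2 held most of the signal of both genes, and replicate 3 differed little between genotypes. The fitted differences were -3.31 and -3.38, both with adjusted p over the threshold (0.652 and 0.733). Cd48, a surface protein that marks committed progenitors, differed by 0.94 (adjusted p = 0.718).

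**Figure D4:**
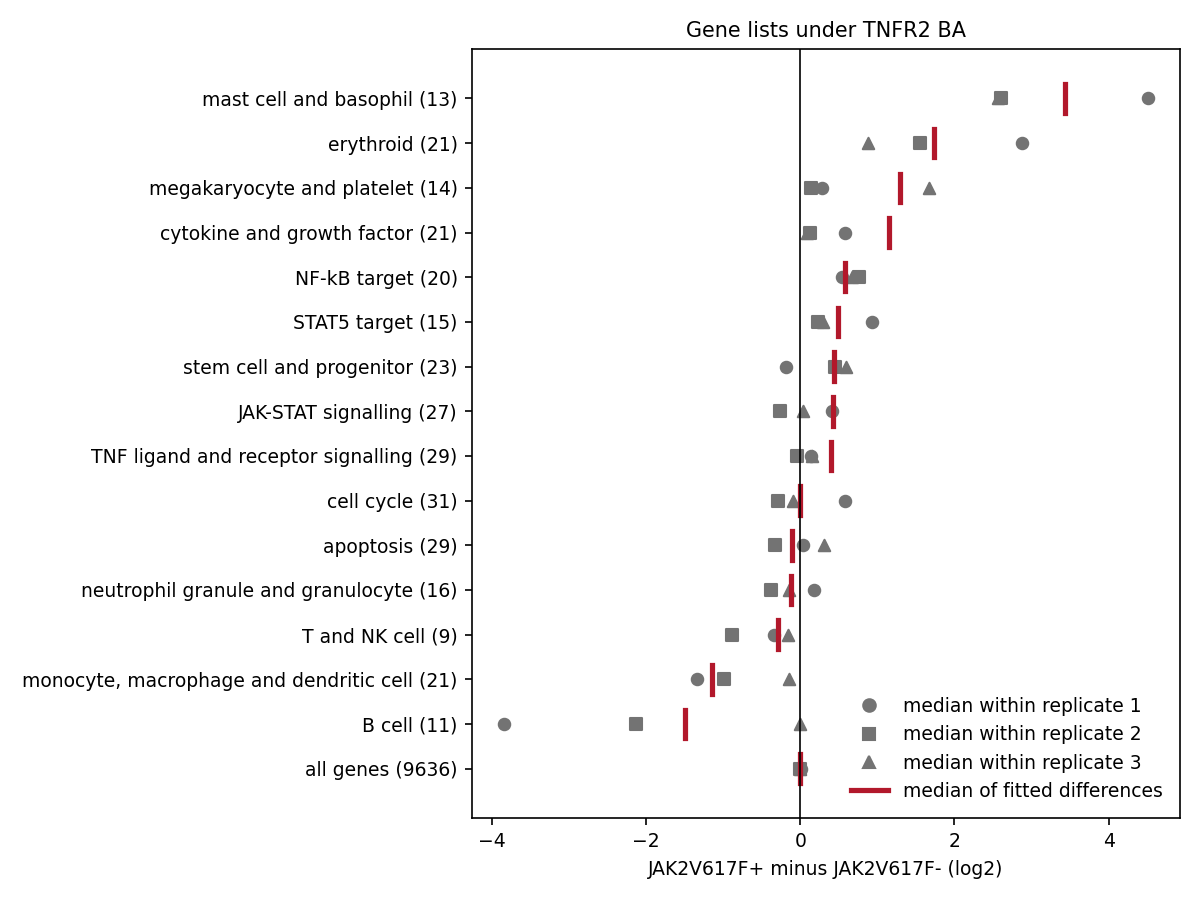
Median JAK2V617F+ minus JAK2V617F- difference (log2) of 15 gene lists and of all 9636 genes under TNFR2 BA, with the number of measured genes in parentheses. Grey symbols give the median within each replicate and the red bar the median of the fitted differences, which is 3.44 for mast cell and basophil genes, 1.74 for erythroid genes and 0.00 for all genes.

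Several secreted factors also lay apart. Of 21 cytokine and growth factor genes, 7 had an unadjusted p under 0.05 with a higher signal in JAK2V617F+ cells and 2 with a lower one (3.21% and 3.59% of all probe sets), and 0 passed the adjusted threshold. Lif, a cytokine of the IL-6 family and a target of STAT5, had 9.86, 10.28 and 9.0 in JAK2V617F+ cells, against 2.22, 5.64 and 2.25 in JAK2V617F- cells. Only replicate 2 of the non-mutant cells was off the lowest signal, and the difference of 6.34 had an adjusted p of 0.0639. Csf1, the growth factor of macrophages, had 8.36, 6.61 and 8.21 in JAK2V617F+ cells, against 2.22, 2.22 and 2.22 in JAK2V617F- cells. It was measurable in every mutant array and at the lowest signal in every other (difference 5.51, adjusted p = 0.094). Vegfc, a growth factor of lymphatic vessels, had the same form with 8.72, 7.61 and 5.63 in JAK2V617F+ cells, against 2.22, 2.22 and 2.22 in JAK2V617F- cells (difference 5.10, adjusted p = 0.681).

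Chemokines lay on both sides. Ccl3, which attracts monocytes and is an NF-kB target, had 10.87, 11.24 and 11.51 in JAK2V617F+ cells, against 10.34, 2.96 and 5.5 in JAK2V617F- cells. JAK2V617F- replicate 1 came close to the mutant arrays, and the difference was 4.94 (adjusted p = 0.207). The related Ccl4 had 5.68, 5.56 and 4.68 in JAK2V617F+ cells, against 3.26, 3.25 and 3.25 in JAK2V617F- cells (difference 2.05, adjusted p = 0.686), and Ccl6 had 9.92, 10.65 and 11.16, against 2.31, 2.22 and 10 (difference 5.73, adjusted p = 0.547). Ccl4 did not overlap, whereas Ccl6 was high in JAK2V617F- replicate 3. Ccl22 and Ccl17, chemokines of dendritic cells that attract T cells through CCR4, had differences of -4.75 and -3.34 (adjusted p = 0.348 and 0.343). Ccl22 had 3.87, 8.02 and 3.89 in JAK2V617F+ cells, against 10.2, 11.38 and 8.46 in JAK2V617F- cells, and did not overlap.

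Among the genes of TNF signalling itself, 0 of 29 passed the adjusted threshold, and 1 of 29 had an unadjusted p under 0.05. That gene had a lower signal, as 3.59% of all probe sets did at such a p. Tnfrsf1b, which encodes the blocked TNFR2, had 11.73, 10.94 and 11.82 in JAK2V617F+ cells, against 11.8, 12.02 and 11.4 in JAK2V617F- cells (difference -0.25, 95% confidence interval -1.72 to 1.23). Tnfrsf1a, which encodes TNFR1, had 8.81, 9.64 and 10.01 in JAK2V617F+ cells, against 9.35, 8.04 and 9.94 in JAK2V617F- cells (difference 0.37, interval -1.28 to 2.02). For both genes the groups overlapped, and the BA acts on the protein, so these transcripts do not check the block. Birc2, which encodes cIAP1, a ubiquitin ligase of the TNF receptor complex, had 7.84, 4.58 and 8.9 in JAK2V617F+ cells, against 9.46, 9.56 and 8.76 in JAK2V617F- cells. Replicate 2 of the mutant cells was the low point (difference -2.15, adjusted p = 0.704). Traf1, an adaptor of TNFR2, had 4.93, 4.93 and 4.79 in JAK2V617F+ cells, against 7.5, 8.19 and 4.99 in JAK2V617F- cells, below in every array but with replicate 3 nearly level (difference -2.01, adjusted p = 0.808).

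Downstream, the 15 measured NF-kB subunits and inhibitors had a median difference of 0.10. At an unadjusted p under 0.05, 2 of them had a lower signal (3.59% of all probe sets did). Rel, a subunit of NF-kB in blood cells, had 2.86, 5.52 and 7.68 in JAK2V617F+ cells, against 9.88, 8.54 and 8.71 in JAK2V617F- cells. The groups did not overlap, and the difference of -3.69 (adjusted p = 0.6) came mostly from replicates 1 and 2. Nfkbia, the inhibitor induced by NF-kB itself, differed by -1.44 (adjusted p = 0.718) with overlap. Of 20 NF-kB target genes, 16 had a positive difference with a median of 0.58, 4 had an unadjusted p under 0.05 with a higher signal (Ccl3, Il1b, Icam1 and Ccl4) and 2 with a lower one (Nfkbia and Gadd45b), beside 3.21% and 3.59% of all probe sets. Icam1, an adhesion receptor, had 9.75, 10.2 and 11.35 in JAK2V617F+ cells, against 8.62, 6.51 and 7.15 in JAK2V617F- cells. The stress gene Gadd45b had 4.77, 7.51 and 4.17 in JAK2V617F+ cells, against 12, 9.48 and 7.56 in JAK2V617F- cells. Neither gene overlapped between genotypes, and their differences of 3.01 and -4.20 had adjusted p values of 0.607 and 0.595. Il1b, the cytokine interleukin-1 beta, differed by 3.03 with overlap (adjusted p = 0.698).

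Genes of JAK-STAT signalling, the pathway of the mutant kinase, had a median difference of 0.43, with members on both sides of 0 and 0 of 27 past the adjusted threshold. Jak3, the kinase of lymphoid cytokine receptors, had the largest difference of the list, with 8.71, 6.84 and 2.25 in JAK2V617F+ cells, against 2.8, 2.22 and 2.29 in JAK2V617F- cells. Mutant replicates 1 and 2 were high and replicate 3 was not (difference 3.50, standard error 1.74, adjusted p = 0.757). Jak2 had 9.86, 8.33 and 9.93 in JAK2V617F+ cells, against 9.6, 8.73 and 6.0 in JAK2V617F- cells. Only replicate 3 of the non-mutant cells was apart, and the difference was 1.27 (standard error 1.10). No source used here states whether the Jak2 probe set reads the vector's transcript. Stat5a and Stat5b, the main STATs of erythropoietin signalling, differed by 0.81 and -0.85 with overlap. Stat3 had 2.22, 2.22 and 2.22 in JAK2V617F+ cells, against 6.24, 2.22 and 5.62 in JAK2V617F- cells, and 1 of 27 genes (Stat3) reached an unadjusted p under 0.05 (difference -2.47, adjusted p = 0.681). Of all probe sets, 3.59% reached such a p with a lower signal.

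Of 15 STAT5 target genes, 14 had a positive difference, with a median of 0.49 beside 0.00 over all genes. The medians within replicates 1, 2 and 3 were 0.94, 0.23 and 0.29. At an unadjusted p under 0.05, 2 were higher and 1 lower (3.21% and 3.59% of all probe sets), and 0 passed the adjusted threshold. Lif and Podxl led the list. Podxl, a sialomucin of progenitors and vessels, had 8.44, 8.29 and 10.23 in JAK2V617F+ cells, against 3.37, 2.36 and 2.36 in JAK2V617F- cells, far apart and without overlap (difference 6.29, adjusted p = 0.0678). Bcl6, a repressor that STAT5 lowers, was the 1 negative member at -3.11 (adjusted p = 0.641). Csf2rb2, a beta chain of the mouse IL-3 receptor, had 12.68, 12.79 and 12.57 in JAK2V617F+ cells, against 11.29, 11.81 and 10.83 in JAK2V617F- cells, with tight mutant arrays above all others (difference 1.37, adjusted p = 0.317).

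The cell cycle list had a median difference of 0.00, and its members diverged. Ccnd1, the D-type cyclin that drives entry into S phase, had 4.14, 6.63 and 3.67 in JAK2V617F+ cells, against 9.34, 8.77 and 9.09 in JAK2V617F- cells. Each mutant array lay below its partner, without overlap (difference -4.25, adjusted p = 0.551). Top2a, the topoisomerase of dividing cells, had 7.29, 5.25 and 5.25 in JAK2V617F+ cells, against 9.56, 8.61 and 8.41 in JAK2V617F- cells, likewise without overlap (difference -2.93, adjusted p = 0.431). Ccne1, the cyclin that acts after Ccnd1, differed by 2.21, the inhibitor Cdkn2c by 2.75 and Rrm2, a subunit that makes DNA precursors, by 0.81. Their adjusted p values were 0.607, 0.652 and 0.616. In the apoptosis list, the median was -0.11. Birc6, a large inhibitor of apoptosis, had 4.27, 2.22 and 2.22 in JAK2V617F+ cells, against 7.2, 8.86 and 7.82 in JAK2V617F- cells, without overlap (difference -5.06, adjusted p = 0.598). The MAP kinase list had a median of -0.58. At an unadjusted p under 0.05, 1 of its 26 genes was higher and 3 were lower (3.21% and 3.59% of all probe sets). Among feedback inhibitors, Spry1 differed by 2.44, Spred1 by -4.13 and Dusp5 by -2.72 (adjusted p = 0.567, 0.681 and 0.733). The kinase Map3k3 differed by -2.38 (adjusted p = 0.681).

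Ranked by p among named genes without overlap, the 12 highest-ranked with a higher signal were the 6 called genes with Lif, Podxl, Ermap, Csf1, Cyp11a1 and Hr. Cyp11a1, the enzyme that begins steroid synthesis, had 12.7, 11.91 and 12.33 in JAK2V617F+ cells, against 9.46, 9.19 and 6.04 in JAK2V617F- cells (difference 4.08, adjusted p = 0.0678). It was bright in all mutant arrays and lowest in JAK2V617F- replicate 3. Hr, a nuclear corepressor known from hair growth, had 10.18, 6.05 and 7.3, against 2.22, 2.22 and 2.22 (difference 5.63, adjusted p = 0.0735).

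The 12 highest-ranked with a lower signal had smaller or less certain differences. Vamp3, a SNARE protein of endosomal vesicles, was the tightest, with 10.66, 10.78 and 10.72 in JAK2V617F+ cells, against 12.29, 13.16 and 11.77 in JAK2V617F- cells. The mutant arrays were nearly level and lay below all others (difference -1.69, standard error 0.37, adjusted p = 0.149). Icosl, a ligand that costimulates T cells, had 6.33, 4.91 and 3.57 in JAK2V617F+ cells, against 9.15, 11.77 and 10.58 in JAK2V617F- cells (difference -5.56, adjusted p = 0.163). Lsp1, an actin-binding protein of leukocytes, had 8.32, 7.61 and 6.71, against 11.64, 10.65 and 9.73 (difference -3.13, adjusted p = 0.207). The ribosomal protein gene Rpl41 had 6.55, 2.42 and 2.57 in JAK2V617F+ cells, against 10.72, 9.25 and 7.23 in JAK2V617F- cells, a wide range for a transcript that every cell uses. Its difference was -5.22 (adjusted p = 0.149). Etf1 (translation termination), Dtl (replication control), Elovl6 (fatty acid elongation) and Ern1, a sensor of unfolded proteins from a separate list, differed by -5.16, -5.59, -4.52 and -4.01. H2-Aa, Rnf138, Mppe1, P3h1 and Ramp3 made up the rest, and all 12 had adjusted p values over the threshold.

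Set beside the other cultures, most of the higher signals were not particular to TNFR2 BA. Of the 6 called genes, 4 were called in untreated and 4 in TNFR1 BA-treated cells, and 4 in all 3 (Mycn, Tpsb2, Tpsab1 and Cpa3), where untreated cells gave 7 higher (0.0677% of probe sets) and 2 lower calls (0.0194%) and TNFR1 BA-treated cells 11 (0.106%) and 2 (0.0194%). Mycn differed by 8.12 under TNFR2 BA, 8.45 under TNFR1 BA and 8.22 in untreated cells. For Tpsab1 the differences were 8.60, 9.45 and 8.58, and for Cpa3 2.62, 2.34 and 2.37. Fcer1a differed by 3.82 under TNFR2 BA, 2.87 under TNFR1 BA and 2.57 in untreated cells. Rhoj differed by 5.85, 2.72 and 4.20 in the same order, and its JAK2V617F+ signals of 4.42, 5.75 and 4.65 under TNFR1 BA and 5.09 and 7.56 in untreated cells were all below those under TNFR2 BA. Tests of the difference between cultures did not pass for these genes. For Rhoj, TNFR2 BA minus TNFR1 BA was 3.13 (adjusted p = 0.987).

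The ranked genes divided by direction. All 12 ranked genes with a higher signal had positive differences in untreated and in TNFR1 BA-treated cells, 10 of 12 at an unadjusted p under 0.05 in each. The share of all probe sets with such a p or sign was not counted for these 2 cultures. Over all genes the median difference was -0.09 in untreated cells and 0.11 under TNFR1 BA. Csf1 counted as positive in untreated cells with a fitted difference of 0.0034 and signals of 2.28 and 2.68 in JAK2V617F+ cells, against 2.22, 2.22 and 2.25 in JAK2V617F- cells, all at or near the lowest signal. Under TNFR1 BA it differed by 2.97, and TNFR2 BA minus untreated was 5.50 (adjusted p = 1). Of the 12 with a lower signal, 10 were negative in untreated and 7 in TNFR1 BA-treated cells, 3 of 12 at an unadjusted p under 0.05 in each. Several of the negative differences in untreated cells were near 0. They were -0.04 for Icosl, -0.14 for P3h1, -0.15 for Rpl41, -0.26 for Elovl6 and -0.32 for Vamp3. H2-Aa, Lsp1 and Ramp3 were further off, at -3.39, -4.41 and -3.84. The count of negative signs is therefore weak as a sign of likeness between cultures. Median differences of the mast cell and basophil list were 3.44 under TNFR2 BA, 2.67 under TNFR1 BA and 2.57 in untreated cells, and of the erythroid list 1.74, 1.66 and 1.87. Across all probe sets, differences under TNFR2 BA correlated with those in untreated cells by Pearson's r = 0.231 and with those under TNFR1 BA by r = 0.205, over 10335 probe sets that are not independent replicates.

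The interaction, the genotype difference under TNFR2 BA minus that of another culture, asks where the block set the genotypes apart in another way. No probe set passed the adjusted threshold against untreated cells, TNFR1 BA-treated cells or their mean (0, 0 and 0 by limma, with 448, 505 and 413 at an unadjusted p under 0.05). Those counts were 4.33%, 4.89% and 4% of all probe sets, each below the 517 expected with no difference between cultures. The single genes below are therefore described and not called. The smallest adjusted p values were 0.458, 0.575 and 0.203, the last for Xiap.

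Xiap, an inhibitor of caspases that also takes part in receptor signalling, had 9.83, 10.53 and 12.01 in JAK2V617F+ cells under TNFR2 BA, against 9.7, 7.99 and 11.04 in JAK2V617F- cells. The mutant array exceeded its partner in all 3 pairs, by little in replicate 1, with a difference of 1.22 (standard error 1.03, 95% confidence interval -0.98 to 3.41). Under TNFR1 BA it had 2.22, 5.69 and 5.64 in JAK2V617F+ cells, against 11.69, 8.52 and 11.26 in JAK2V617F- cells. In untreated cells it had 2.53 and 2.31 in JAK2V617F+ cells, against 10.3, 8.88 and 11.55 in JAK2V617F- cells. The non-mutant signals of all 3 cultures were alike in range, and the mutant signals were high under TNFR2 BA only. TNFR2 BA minus untreated was 8.44 (unadjusted p = 6.6e-05, adjusted p = 0.458), TNFR2 BA minus TNFR1 BA was 7.18 (adjusted p = 0.575), and against the mean of both it was 7.81 (standard error 1.30, unadjusted p = 1.97e-05, adjusted p = 0.203). Xiap and Mapk8 were chosen by the study on these arrays, so their pattern here is a description and not independent evidence. By qPCR in other MPN mice, the paper also reports lower Xiap and a trend to lower Mapk8 in JAK2V617F+ cells. It reports both as lower in CD34+ cells of human myelofibrosis. That qPCR is not described as done under a BA.

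Mapk8, which encodes JNK1, had 6.83, 9.1 and 8.61 in JAK2V617F+ cells under TNFR2 BA, against 9.78, 9.76 and 8.15 in JAK2V617F- cells. The groups overlapped, and the difference was -1.05 (interval -3.89 to 1.79), beside -2.85 under TNFR1 BA and -6.67 in untreated cells. TNFR2 BA minus untreated was 5.62 (unadjusted p = 0.0139, adjusted p = 1), and TNFR2 BA minus TNFR1 BA was 1.80 (adjusted p = 0.999). Itm2a, Prdx2 and Asb17, which the paper also names, had differences of 0.59, 1.26 and 0.23 under TNFR2 BA. They were at or near the lowest signal in most of the 6 arrays, and their differences in untreated cells were 6.25, 6.51 and 5.67. Under TNFR1 BA the differences were 0.94, 1.73 and 1.15, so the smaller difference was not particular to TNFR2 BA. The paper likewise reports that a block of either receptor reversed these genes.

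Other genes with small unadjusted interaction p values included signalling proteins. Cblb, a ubiquitin ligase that restrains receptor signalling, had 8.27, 6.56 and 8.78 in JAK2V617F+ cells, against 3.25, 4.1 and 3.23 in JAK2V617F- cells. The mutant arrays were all above the others (difference 4.34), whereas the differences were -2.19 under TNFR1 BA and -3.62 in untreated cells. TNFR2 BA minus the mean of both was 7.25 (adjusted p = 1). Mycbp2, a large ubiquitin ligase, had 8.61, 9.59 and 2.41 in JAK2V617F+ cells, against 2.41, 2.29 and 2.23 in JAK2V617F- cells. Replicates 1 and 2 alone carried its difference of 4.56, beside -0.21 under TNFR1 BA and -6.11 in untreated cells (TNFR2 BA minus untreated 10.66, adjusted p = 1).

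The kinases Akt1 and Akt2, which carry survival signals from growth factor receptors, both had higher mutant arrays in all 3 pairs under TNFR2 BA. Akt2 had 11.98, 11.89 and 11.76 in JAK2V617F+ cells, against 10.5, 7.9 and 9.04 in JAK2V617F- cells, and Akt1 had 10.85, 11.45 and 9.17, against 8.81, 5.36 and 6.28. Neither overlapped, and the differences were 2.73 and 3.67, beside -1.78 and -2.82 under TNFR1 BA and 0.70 and 1.13 in untreated cells. TNFR2 BA minus TNFR1 BA was 4.51 for Akt2 and 6.49 for Akt1 (adjusted p = 0.663 and 0.823). Rab27b, a GTPase of granule secretion in platelets and mast cells, differed by -2.07 under TNFR2 BA, 4.99 under TNFR1 BA and 4.33 in untreated cells. Its signals were 3.9, 2.22 and 6.96 in JAK2V617F+ cells, against 7.77, 4.04 and 7.49 in JAK2V617F- cells, and TNFR2 BA minus the mean of both was -6.73 (adjusted p = 1). Cry2, a repressor of the circadian clock, was nearly level between genotypes under TNFR2 BA at 0.53, against -5.70 in untreated cells (TNFR2 BA minus untreated 6.24, adjusted p = 0.458).

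**Figure D5:**
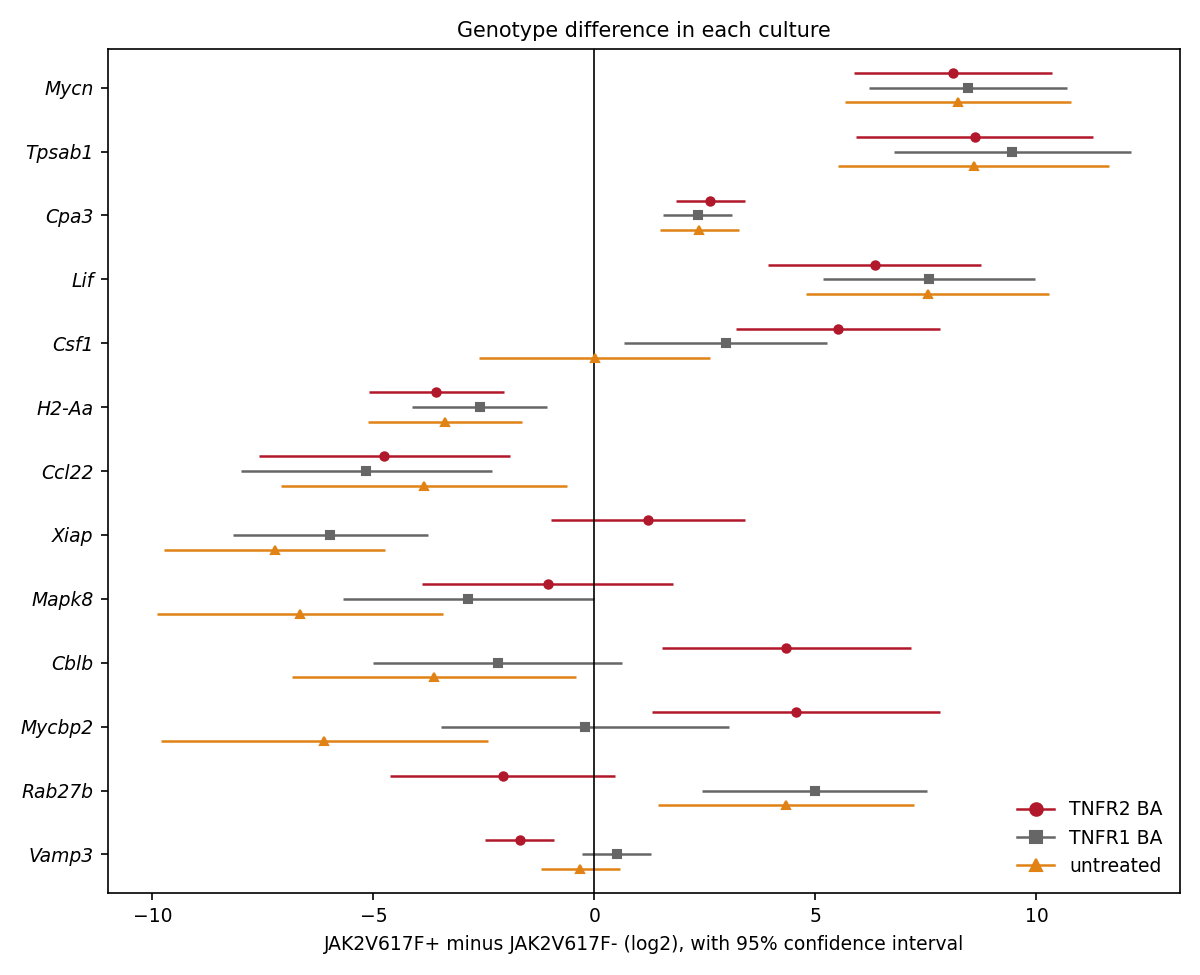
JAK2V617F+ minus JAK2V617F- difference (log2) with its 95% confidence interval from limma for 13 genes under TNFR2 BA, under TNFR1 BA and in untreated cells, where untreated JAK2V617F+ cells had 2 arrays. Mycn, Tpsab1 and Cpa3 lie above 0 in all 3 cultures, whereas Xiap lies at 1.22 under TNFR2 BA and at -5.97 and -7.23 under TNFR1 BA and in untreated cells.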

How the data were processed

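Total RNA was amplified, labelled with biotin and hybridised to Affymetrix mouse arrays. The authors deposited log2 signals for 10335 probe sets, made with Affymetrix Expression Console per the submitters' processing notes. No source used here gives the normalization or how probe sets were chosen, and the number of arrays, not a read depth, sets the precision. Signals were used as deposited, on the 17 arrays that the paper kept. In the platform annotation 9651 probe sets carried 1 gene symbol, 27 carried more and 657 carried none. A gene with several probe sets (15 genes) was represented by the brightest.

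Limma 3.58.1 in R 4.3.3 was fitted to 6 group means with the replicate number as a block (residual df 9), trended variances, and p-values adjusted after Benjamini-Hochberg over all probe sets at 0.05. The pairing comes from the paper, which sorted both genotypes from each of 3 experiments and states paired tests for murine samples, while the labels do not say what the number marks. The correlation of deviations from the group mean, JAK2V617F+ with JAK2V617F- array, was -0.02, 0.09 and 0.06 for replicates 1, 2 and 3, so the data show the pairing weakly. The paper took marrow from several mice in each of the 3 independent experiments. Nothing in the labels states which animals an array came from, and p-values measure the spread between these arrays. With 3 against 3 arrays, an exact permutation test cannot go below 0.1, and none was used for single genes.

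Named genes were all probe sets past the threshold, the 12 per direction of smallest p without overlap, list members with an unadjusted p under 0.05 or, in marker lists, the largest difference in either direction, members of the TNF, JAK-STAT and paper lists, and 5 per direction of smallest p in each interaction. Others are said to be chosen after their values were seen, except Kit, given as the sort marker, and Traf1, of the TNF list. The members and the 27 gene lists were chosen with earlier results of these data known, and lists are described by counts and medians. Promoter windows came from RefSeq (GRCm38.p6). The fits were tested on simulated data. Alternatives were no block, all 18 arrays, the 6 arrays alone, the methods' paired t-test, quantile normalization, median centring, a filter on the dimmest 25% of probe sets, a floor of 5, no trend, array weights and leave-one-out. Figures used matplotlib.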

Additional observations from a re-analysis of the deposited data

Results flagged for a closer look

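For 17 genes, every pair of the TNFR2 BA cultures differed one way between genotypes and every pair of another culture the opposite way, with 3 pairs under TNFR1 BA and 2 pairs in untreated cells. They came from the genes named for a small p, so the opposite pairs follow in part from that choice. The test of each difference (limma) did not pass after adjustment for any of these genes. Against untreated cells, the genotype difference under TNFR2 BA was greater by 8.44 for Xiap, 6.24 for Cry2, 10.66 for Mycbp2, 7.96 for Cblb and 6.73 for Btbd7. In the other direction it was -4.26 for Elovl6, -1.94 for 3110082I17Rik, -6.20 for Osbpl7 and -6.40 for Rab27b. Against TNFR1 BA-treated cells it was greater by 7.18 for Xiap, 4.77 for Mycbp2, 4.51 for Akt2, 6.53 for Cblb and 5.25 for Btbd7. In the other direction it was -2.19 for Vamp3, -5.88 for Rnf138, -3.08 for P3h1, -6.10 for Cox6b2, -2.62 for Pbdc1, -5.23 for Commd6, -1.82 for Frg1 and -7.06 for Rab27b. All values are log2. Some of the opposite pairs in the other culture were nearly level, with a smallest pair difference of 0.00022 for P3h1, -0.023 for Mycbp2, 0.037 for Vamp3 and -0.086 for Akt2 under TNFR1 BA and 0.035 for Elovl6 in untreated cells. Pairs under TNFR2 BA could be small too. The smallest was -0.11 for 3110082I17Rik, 0.14 for Xiap, 0.14 for Cry2, -0.15 for Frg1 and 0.18 for Mycbp2.

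The array left out for quality, untreated JAK2V617F+ replicate 3, entered none of these comparisons. Its log2 signals of the called genes were 9.83 for Rhoj, 11.97 for Fcer1a, 5.14 for Tpsb2, 9.26 for Mycn, 12.04 for Tpsab1 and 14.78 for Cpa3, each above all 3 untreated JAK2V617F- arrays.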

How the results depend on the processing

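The differences of the 6 called genes stayed positive in every alternative run. The number of higher calls was 4 without the replicate block, 6, the same genes, after quantile normalization, median centring or array weights, and 6 with variances without a trend, where Lif and Podxl passed and Cpa3 and Fcer1a did not. It was 7 without the dimmest 25% of probe sets, where Rhoj was not tested, and 8 with signals under 5 set to 5, where Rhoj and Fcer1a did not pass. Fcer1a passed in 4 of the 20 alternatives. It was 3 with all 18 arrays, 0 with only the 6 TNFR2 BA arrays with or without the replicate block, and 0 by the methods' paired t-test, which gave 438 probe sets at an unadjusted p under 0.05. Leaving out arrays gave 0 to 5 higher calls, with 2, 0 and 0 without replicates 1, 2 and 3, 0, 5 and 3 without JAK2V617F+ replicates 1, 2 and 3, and 1, 4 and 3 without JAK2V617F- replicates 1, 2 and 3 under TNFR2 BA. The cause of these changes was not tested, beyond the smaller number of arrays. Lower calls were 1 with signals under 5 set to 5 and 1 with variances without a trend. Interaction calls with signals under 5 set to 5 were 5 against untreated and 1 against TNFR1 BA-treated cells, and 0 to 1 in each interaction when arrays were left out, with the 1 call always without JAK2V617F- replicate 1. Xiap and the other named interaction genes passed in none of these fits.

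The shift of the lists kept its sign in every fit run for mast cell and basophil, erythroid and monocyte genes. Some single genes changed sign when an array was left out. The differences then ranged over -0.065 to 2.10 for Jak2, -0.15 to 1.89 for Stat5a, -0.28 to 0.83 for Tnfrsf1a, -0.70 to 0.17 for Tnfrsf1b, -0.41 to 1.23 for Ms4a2, -0.011 to 5.21 for Ighm, -0.13 to 0.40 for Lcn2, -0.57 to 0.31 for Ltf, -0.18 to 1.31 for Itm2a, -0.45 to 2.26 for Prdx2 and -2.09 to 2.43 for Asb17. With array weights Lcn2 was at -0.032. Signals at the lowest value bound what a fall can show, and without detection calls no level there can be ranked.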

Other observations

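The metabolic and stress lists did not separate the genotypes under TNFR2 BA. The median difference was 0.37 for 11 haem synthesis genes, 0.13 for 13 glycolysis genes, -0.03 for 17 cholesterol synthesis genes, 0.24 for 15 antioxidant genes, 0.01 for 22 genes of the unfolded protein response, 0.48 for 16 interferon response genes and 0.14 for 23 haematopoietic cytokine receptors, and none of these genes passed the adjusted threshold. The immediate early and heat shock list, kept as a sign of handling, had a median of 0.49. Of its 20 genes, 2 had an unadjusted p under 0.05 with a higher signal in JAK2V617F+ cells (3.21% of all probe sets did). The 4 measured eosinophil genes had a median difference of 0.27. Their mean levels were 6.01, 7.04 and 10.43 in JAK2V617F+ and 6.90, 6.61 and 9.43 in JAK2V617F- cells, so replicate 3 was the highest of both genotypes.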
